A study of Mus musculus with 11 samples.

Results

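The comparison described here is that of Crebl2 siRNA with luciferase siRNA in the ethanol vehicle, in mouse embryonic fibroblasts of 1 line with neither p53 nor TSC2. It rests on 5 of the 11 Illumina mouse bead arrays of the series, chosen by their labels: 2 arrays of cells with luciferase siRNA, a control siRNA with no mouse target, and 3 of cells with Crebl2 siRNA. All 5 received ethanol for 12 h and no rapamycin. The other 6 arrays, 3 for each siRNA, were of cells given 20 nM rapamycin for 12 h and entered the fit as groups of their own. The labels give 3 days of siRNA, whereas the design text gives 2.5 days and spells the target Creb2. The p53-/- TSC2-/- genotype was shared by the controls, so no array here shows cells with a working TSC complex. The labels do not say whether arrays of a group came from separate cultures, and p-values therefore measure only the spread between these samples, which may be technical.

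TSC2 restrains mTORC1, the kinase complex that drives protein, lipid and nucleotide synthesis, and without TSC2 mTORC1 stays active. Among the known outputs of mTORC1 in such fibroblasts are the amino acid stress factor ATF4, the hypoxia factor HIF1A and the sterol factors of the SREBP family. Crebl2 encodes a small bZIP protein related to CREB. In Drosophila, the related protein REPTOR-BP works with REPTOR in the transcriptional response to reduced TORC1 activity.

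The Crebl2 probe did not settle the labels. Its log2 levels were 7.04 and 7.06 on the control arrays and 7.08, 6.81 and 6.68 on the arrays labelled Crebl2 siRNA 1, 2 and 3. Array 1 was not below the controls, and on array 3 the probe was not above background. The lowest detected signal of an array lay between 6.74 and 6.78, so this probe sat close to the limit of detection. The difference was -0.11 ± 0.12 (SE) for arrays 1 and 2 and -0.19 ± 0.14 with array 3, with adjusted p of 0.621 and 0.413 (limma). With background correction (neqc, described at the end) these differences were -0.38 and -0.65, and in rapamycin the same contrast gave -0.30 ± 0.12 (adjusted p = 0.0737). These values all lie in the direction of the label, and none passed the threshold. They come from the same probe, and those in ethanol share arrays, so they are not separate measurements. No other probe on the array carried this gene, and the arrays are called Crebl2-labelled below. Tsc2 was still measured, at 10.24 and 10.29 on the controls and 9.98, 9.94 and 9.47 on the labelled arrays, a difference that did not pass (adjusted p = 0.0550 for arrays 1 and 2 and 0.0739 with array 3). The 3 Tsc2 probes disagreed, with differences from -0.31 to 0.14, and the labels do not say which exons of Tsc2 the line lacks.

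Array 3 stood apart from arrays 1 and 2 of its own group. Of 13760 genes tested, 624 were more than 1 log2 unit higher on array 3 than the mean of arrays 1 and 2, and 24 were as far below it. Between arrays 1 and 2, and between the 2 controls, 0 genes differed by that much. The SD of the differences was 0.564 for array 3 against arrays 1 and 2, 0.144 between arrays 1 and 2, and 0.158 between the controls. Over the genes tested, array 3 correlated with the 3 Crebl2-labelled rapamycin arrays at 0.989 or more, and those 4 arrays correlated with the other 7 between 0.929 and 0.949. Array 3 also had 50.5% of its probes above background, against 46.9 to 47.7% on the other 4 arrays in ethanol. The labels name no batch, and whether array 3 had another labelling, hybridisation or sample from the rest was not tested. Results are therefore given without array 3 and with it.

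**Figure D1:**
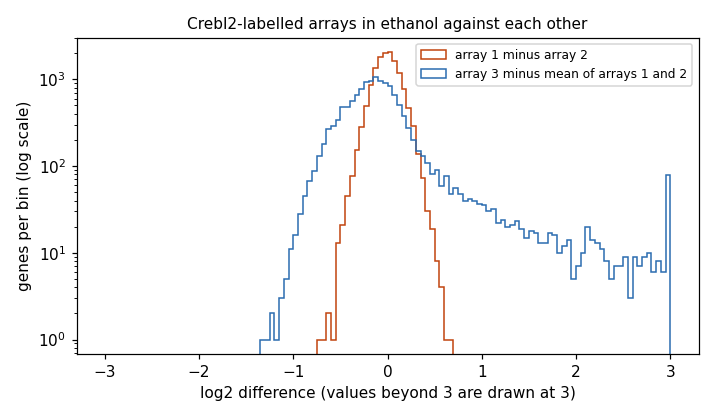
Histogram over the 13760 genes of the log2 difference between Crebl2-labelled arrays in ethanol, with the number of genes on a log scale. The narrow curve is array 1 minus array 2 and stays within 1 log2 unit. The wide curve is array 3 minus the mean of arrays 1 and 2 and has a long right side holding the 624 genes more than 1 log2 unit higher.

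Without array 3, genes were called at an adjusted p under 0.05 with both labelled arrays beyond both controls on the same side. These are the core genes. There were 2187 of them, 15.9% of those tested. Of these, 1327 were lower (9.64% of genes tested) and 860 were higher (6.25%) on the labelled arrays. Their median differences were -0.45 and 0.43, and 46 lower and 8 higher genes differed by more than 1 log2 unit. The median over all genes was -0.02. With all 3 labelled arrays 1279 genes passed (9.3%), of which 1019 were lower (7.41%) and 260 higher (1.89%). Both fits called 1260 genes in the same direction (9.16%). They were 1002 lower genes (7.28%) and 258 higher genes (1.88%), and the fit with 3 arrays called 19 genes that were not in the core.

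Array 3 was not used to choose the core, but the 2 controls were, so a gene chosen for high or low controls tends to have array 3 on the same side without any change. The shares over all genes are therefore no measure of what such a choice alone gives, and these counts are a description. Array 3 lay below both controls for 1246 of the 1327 lower core genes (93.9%), against 58.7% of all genes tested. For the 860 higher core genes it lay above both controls for 559 (65%), against 27.3% of all genes, and below both for 198. Leaving out any 1 of the 4 arrays left 1113 to 1385 core genes, and 489 lower and 216 higher genes were called in every one of those 4 fits.

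The lower core genes with the largest differences were led by the amino acid stress response. Here the kinase GCN2 or other stress kinases slow translation while the transcription factor ATF4 is made, and ATF4 turns on genes for amino acid import, amino acid synthesis and tRNA charging as well as stress regulators. Of 17 tested members of this list, 15 were core genes and all 15 were lower. Of these, 14 were also lower with array 3 in the fit, against 9.64% and 7.41% of all genes. The list had a median difference of -0.69, beside -0.02 over all genes. In the cells of a bulk sample, fewer cells making a transcript and less transcript per cell cannot be told apart.

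Fgf21, a secreted hormone that ATF4 induces, had log2 levels of 10.30 and 10.69 on the controls and of 8.08, 8.07 and 7.78 on Crebl2-labelled arrays 1, 2 and 3. All 3 labelled arrays lay far below both controls. It fell by 2.42 ± 0.14 on the log2 scale without array 3, the largest difference of any core gene (adjusted p = 6.57e-11, limma).

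Ddit3, which encodes the stress factor CHOP, stood at 12.32 and 12.63 on the controls and at 10.23, 10.29 and 9.04 on the labelled arrays. It fell by 2.21 ± 0.13 without array 3 (adjusted p = 5.18e-11), and array 3 lay lower still. For Trib3, a pseudokinase that feeds back on ATF4 and CHOP, control levels of 13.23 and 13.39 compared with 11.29, 11.36 and 10.85. That decrease was 1.98 ± 0.10 (adjusted p = 1.78e-11). Chac1, an enzyme that degrades glutathione, was at 13.51 on both controls and at 12.07, 12.18 and 11.85 on the labelled arrays. It fell by 1.39 ± 0.10 (adjusted p = 2.86e-09). Array 3 lay on the same side of the controls as arrays 1 and 2 in all 3 genes. For arrays 1 and 2 the lack of overlap with the controls is part of how every core gene was chosen, here and below.

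Further members fell by smaller amounts. Ddit4, an inhibitor of mTORC1 also known as REDD1, went from 11.59 and 11.60 on the controls to 10.35, 10.35 and 9.80. Ppp1r15a, which encodes the phosphatase subunit GADD34 that restores translation, went from 10.09 and 10.12 to 8.90, 9.02 and 8.28. Their differences were -1.25 ± 0.13 and -1.14 ± 0.10, with adjusted p of 7.75e-07 and 8.37e-08. The bZIP genes of the response were lower too: Jdp2 by -0.96 ± 0.12, Atf3 by -0.84 ± 0.11, Cebpg by -0.49 ± 0.10 and Cebpb by -0.44 ± 0.10. Vldlr, a lipoprotein receptor, fell by 0.69 ± 0.11 (adjusted p = 0.000113).

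Atf4 itself moved little. Its levels were 13.17 and 13.24 on the controls, 12.89 and 12.86 on labelled arrays 1 and 2, and 13.61 on array 3. Array 3 thus lay above both controls while arrays 1 and 2 lay below them. The difference was -0.33 ± 0.10 without array 3 (adjusted p = 0.0265) and -0.08 ± 0.19 with it (adjusted p = 0.829). It missed the threshold with any 1 of the 4 arrays left out, at adjusted p from 0.0671 without control array 1 to 0.167 without control array 2. The calls of Eif4ebp1 (-0.30), Stc2 (-0.35) and Nupr1 (-0.46) were also lost with 1 array left out, at adjusted p up to 0.266, 0.220 and 0.140. The other 11 lower members kept their calls with each of the 4 arrays left out. Atf5 (-0.32, adjusted p = 0.0874) and Sesn2 (-0.22, adjusted p = 0.273) did not pass, and Sesn2 overlapped between the groups.

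**Figure D2:**
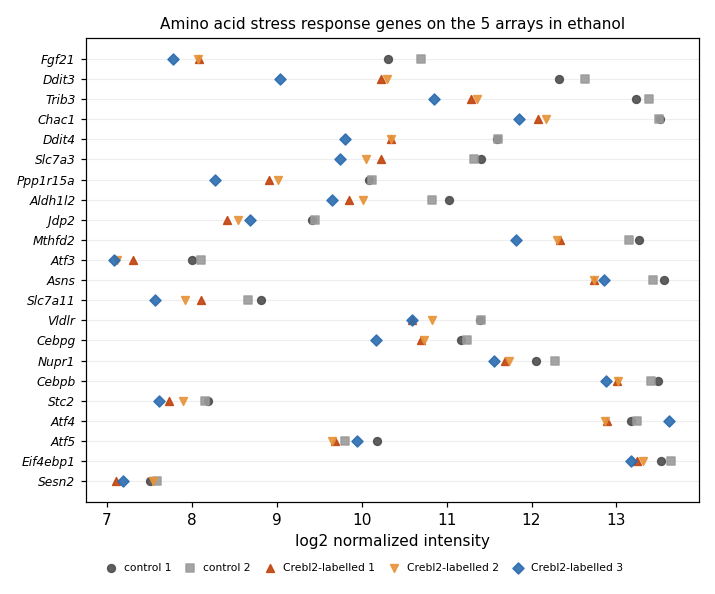
Log2 normalized intensity of the 17 tested genes of the amino acid stress list and of Slc7a3, Slc7a11, Aldh1l2, Mthfd2 and Asns, with 1 symbol for each of the 5 arrays. The labelled arrays (triangles and diamonds) lie to the left of the controls for Fgf21, Ddit3, Trib3 and most others. Exceptions include Atf4, with array 3 at 13.61 to the right of both controls, and Sesn2, which overlapped between the groups.

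Genes downstream in the same response were read from lists of their own. Of 13 tested genes of serine, folate-cycle and amino acid synthesis, 8 were lower and 0 higher in the core. Over all genes the shares were 9.64% and 6.25%, and the list had a median difference of -0.48. Aldh1l2, a mitochondrial folate enzyme, was at 11.03 and 10.83 on the controls and at 9.86, 10.01 and 9.66 on the labelled arrays. Mthfd2, another mitochondrial folate enzyme, was at 13.27 and 13.15, against 12.34, 12.30 and 11.82. Array 3 was the lowest in both genes, and they fell by 0.99 ± 0.10 and 0.88 ± 0.10 (adjusted p = 6.26e-07 and 1.84e-06). Asns, asparagine synthetase, was at 13.56 and 13.43 on the controls and at 12.74, 12.74 and 12.86 on the labelled arrays, and fell by 0.76 ± 0.11 (adjusted p = 2.41e-05). Gpt2, which makes alanine, fell by 0.79 ± 0.11 and Cth, which makes cysteine, by 0.54 ± 0.11.

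In the serine branch, Psat1 and Phgdh differed by -0.48 ± 0.13 and -0.43 ± 0.12 (adjusted p = 0.0118 and 0.0149). Psat1 missed the threshold with any 1 array left out (adjusted p from 0.0617 to 0.0779), and Phgdh without either control array or labelled array 1 (0.0602 to 0.142). Aldh18a1, which starts proline synthesis, differed by -0.60 ± 0.13 and lost its call without control array 1 (-0.43, adjusted p = 0.0716). With array 3, all 8 genes passed and were lower. Shmt2, the mitochondrial serine hydroxymethyltransferase, did not pass at -0.11 ± 0.11 (adjusted p = 0.588).

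Among 12 tested amino acid transporters 4 were lower and 0 higher, beside 9.64% and 6.25% of all genes. The list had a median difference of -0.07, beside -0.02 over all genes. All 4 transporters kept their calls with each array left out. Slc7a3, an importer of cationic amino acids, stood at 11.40 and 11.32 on the controls and at 10.22, 10.05 and 9.74 on the labelled arrays, a fall of 1.23 ± 0.12. A dimmer second probe of this gene differed by only -0.0014. Slc1a4, a neutral amino acid carrier, fell by 0.84 ± 0.11, and Slc7a11, the cystine carrier, by 0.72 ± 0.11. Of the 3 tested Slc7a11 probes 2 were core genes, and another differed by only -0.09. Slc6a9, a glycine carrier, fell by 0.63 ± 0.11. Slc3a2, the heavy chain that Slc7a11 needs, was at 8.23 and 8.07 on the controls, at 8.35 and 8.34 on arrays 1 and 2, and at 12.15 on array 3. It did not pass in either fit (adjusted p = 0.437 and 0.338). The 17 tested tRNA synthetases had a median difference of -0.10. Of them 4 were lower and 0 higher, including Wars (-0.66 ± 0.12) and Gars (-0.55 ± 0.11, second probe -0.08), which charge tRNAs with tryptophan and glycine. Only these 2 kept their calls with each of the 4 arrays left out.

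The stress genes were searched for the letters of the C/EBP-ATF response element (CARE), the composite site that ATF4 and a C/EBP partner bind, and the matches are shown because these genes moved together. Promoters were the RefSeq windows of build GRCm38.p6, 250 bases before to 50 after each start, both strands, and the motif was TGATGNAA. It was present in 7 of the 14 lower members of the stress list that have a promoter in the table (50%). Since 15 of the 17 tested members were lower, this share describes how the list was composed. It is no measure of the siRNA effect. The motif was present in 4.81% of 978 lower core genes, 2.40% of 583 higher core genes, 3.22% of 9712 genes tested and 4.51% of all 27025 genes in the table. The 7 were Atf3, Chac1, Fgf21, Jdp2, Nupr1, Trib3 and Vldlr, of which Trib3 has its match after the start. Lower core genes of the transport, synthesis and tRNA lists that held it were Slc1a4, Slc7a11, Asns, Aars and Gars. The windows shown are those of 6 stress genes, Asns and Slc7a11. A match describes letters and does not show that a factor binds there. Each window below gives the match in capitals with up to 30 bases on each side, 5′ to 3′ on the strand of the gene, so a match on the opposite strand appears as its reverse complement.
Fgf21, chr7:45615592-45615659, minus strand: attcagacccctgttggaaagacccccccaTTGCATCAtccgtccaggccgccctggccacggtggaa
Chac1, chr2:119351019-119351086, plus strand: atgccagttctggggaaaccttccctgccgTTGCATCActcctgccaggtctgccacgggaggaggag
Atf3, chr1:191183406-191183473, minus strand: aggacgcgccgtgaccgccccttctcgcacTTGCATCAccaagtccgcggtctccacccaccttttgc
Nupr1, chr7:126625543-126625610, minus strand: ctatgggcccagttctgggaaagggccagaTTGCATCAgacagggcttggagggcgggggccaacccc
Vldlr, chr19:27216790-27216857, plus strand: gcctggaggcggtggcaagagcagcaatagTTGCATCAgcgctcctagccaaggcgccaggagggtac
Jdp2, chr12:85599353-85599415, plus strand: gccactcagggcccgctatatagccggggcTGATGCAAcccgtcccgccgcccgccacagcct
Asns, chr6:7693210-7693262, minus strand: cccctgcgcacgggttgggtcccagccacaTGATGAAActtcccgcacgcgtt
Slc7a11, chr3:50443623-50443709, minus strand: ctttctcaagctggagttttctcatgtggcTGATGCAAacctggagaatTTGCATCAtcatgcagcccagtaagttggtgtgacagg

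In 7 of these 8 genes every match reads TGATGCAA on one strand or the other, and Asns has TGATGAAA. Slc7a11 holds 2 matches in opposite orientation. The CRE motif of CREB-type bZIP proteins, TGACGTCA, was present in 4.50% of lower and 4.12% of higher core genes, beside 3.36% of genes tested. Its shorter core TGACG, which also lies inside the longer motif, was present in 36.6% and 34.1%, beside 33.3%. The E-box CACGTG was present in 12.4% of lower and 10.98% of higher core genes, beside 11.4% of genes tested. Shares near the background in both directions say nothing of the factors that bind these letters.

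Genes of growth arrest moved in both directions. Gadd45a, a stress sensor that slows the cell cycle, stood at 11.95 and 11.83 on the controls and at 9.90, 10.01 and 9.69 on the labelled arrays. It fell by 1.93 ± 0.12 (adjusted p = 6.57e-11). Cdkn1a, the CDK inhibitor p21, was at 8.80 and 9.05 on the controls and at 7.54, 7.70 and 7.51 on the labelled arrays. It fell by 1.31 ± 0.12 (adjusted p = 9.24e-08). Both were measured in cells labelled p53-/-, and Trp53 was not analysed here. Gadd45b, a relative of Gadd45a, went the other way, from 8.42 and 8.27 to 9.37, 9.24 and 9.15, and rose by 0.96 ± 0.13. Its second probe differed by 0.18 and was not a core gene. Of 14 tested D cyclins and CDK inhibitors, 4 were lower and 3 higher, beside 9.64% and 6.25% of all genes. The list had a median difference of -0.05. With 1 array left out 3 were lower and 1 to 2 higher.

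Immediate early genes are switched on by serum and growth factors within minutes. Of 13 tested, 6 were lower and 1 higher, beside 9.64% and 6.25% of all genes. Fos, a subunit of AP-1, was at 8.51 and 8.64 on the controls and at 7.41, 7.38 and 7.56 on the labelled arrays. Egr1, a zinc finger factor, was at 11.57 and 11.59 against 10.46, 10.37 and 10.53. Klf4, another zinc finger factor, was at 8.61 and 8.90 against 7.50, 7.42 and 7.77. Array 3 lay below both controls in all 3 genes, and their differences were -1.18 ± 0.14, -1.17 ± 0.10 and -1.29 ± 0.12 (adjusted p = 3.08e-06, 3.79e-08 and 7.85e-08). Array 3 lay close to arrays 1 and 2 in these genes. Junb fell by 0.86 ± 0.12 and Ier3 by 0.70 ± 0.11, and both kept their calls with each array left out. Myc differed by -0.43 ± 0.11 and lost its call without control array 1 (-0.33, adjusted p = 0.131) and without labelled array 2 (-0.39, adjusted p = 0.0881). Sik1, a CREB-induced kinase, was the higher gene (0.44 ± 0.12), with array 3 at 6.79 below both controls at 6.97 and 7.06. It lost its call without control array 1 (0.40, adjusted p = 0.0914) and without labelled array 1 (0.27, adjusted p = 0.254). Jun did not pass (-0.09, adjusted p = 0.708).

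Secreted proteases and a chemokine were among the larger decreases. Mmp13, collagenase 3, was at 11.12 and 11.66 on the controls and at 9.68, 9.76 and 9.57 on the labelled arrays, and fell by 1.67 ± 0.15 (adjusted p = 8.60e-08). The controls differed by more than the labelled arrays did, without overlap. Of the 3 Mmp13 probes 2 were core genes. Mmp10, stromelysin 2, and Plau, urokinase, fell by 0.86 ± 0.12 and 0.75 ± 0.12. In all, 4 of 13 tested matrix proteases and inhibitors were lower and 1 was higher, beside 9.64% and 6.25% of all genes. The higher gene was Mmp2 (0.36 ± 0.12). Mmp2 lay at 12.40 on array 3, below both controls at 12.72 and 12.62. Its call was lost with any 1 of the 4 arrays left out (adjusted p up to 0.242), and that of Mmp14 (-0.32 ± 0.11) without either control or labelled array 1 (up to 0.425). Ccl7, a chemokine for monocytes, went from 11.23 and 11.31 to 9.85, 10.00 and 9.97, a fall of 1.35 ± 0.12 (adjusted p = 3.76e-08). Of 13 tested chemokines and cytokines 2 were lower and 2 higher, beside 9.64% and 6.25% of all genes. The list had a median difference of 0.11, and Ccl2, another chemokine, was called higher (0.51). The Ccl2 call was lost without control array 1 (0.43) and without labelled array 1 (0.39).

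Of 12 tested clock genes and outputs 5 were lower and 0 higher, beside 9.64% and 6.25% of all genes. All 5 clock genes kept their calls with each array left out and with array 3. Ciart, a repressor in the circadian feedback loop also known as Chrono, was at 9.15 and 9.24 on the controls and at 7.50, 7.76 and 7.71 on the labelled arrays. It fell by 1.56 ± 0.11 (adjusted p = 2.86e-09). Dbp, a PAR bZIP output gene, went from 9.88 and 9.91 to 9.08, 9.05 and 8.71, and Per2, a repressor of the loop, from 8.77 and 8.53 to 7.98, 7.71 and 7.97. Their decreases were 0.83 ± 0.10 and 0.81 ± 0.12. Bhlhe40, an E-box repressor, fell by 0.71 ± 0.11 and Clock by 0.66 ± 0.12. For Per2 and Clock other probes differed less, up to -0.06 and 0.08. Arntl, the partner of Clock, did not pass (-0.29, adjusted p = 0.129), nor did Nr1d1 (0.08, adjusted p = 0.714). The Ciart promoter held 3 E-boxes within 250 bases of the start, shown in capitals in the window below.
Ciart, chr3:95882237-95882374, minus strand: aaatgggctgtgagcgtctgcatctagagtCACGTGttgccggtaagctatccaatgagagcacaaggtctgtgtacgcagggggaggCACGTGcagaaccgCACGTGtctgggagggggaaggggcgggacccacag

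Glucose use and hypoxia genes fell in part. Of 19 tested genes of glycolysis and lactate export, 9 were lower and 0 higher, beside 9.64% and 6.25% of all genes. The list had a median difference of -0.28. With any 1 of the 4 arrays left out, 6 or 7 were lower. Pfkp and Pfkl, isoforms of phosphofructokinase, were at 9.97 and 10.23, and at 10.93 and 10.96, on the controls. On the labelled arrays Pfkp was at 9.17 or less, with array 3 lowest at 8.30, and Pfkl was at 10.12, 10.26 and 9.90. Array 3 was the lowest for both, and they fell by 1.02 ± 0.12 and 0.76 ± 0.10, although the second probe of Pfkl differed by only -0.13. Slc2a1, the glucose carrier GLUT1, fell by 0.75 ± 0.11, from 11.62 and 11.70 to 10.94, 10.88 and 11.05. Eno2, Aldoc and Ldha fell by 0.69 ± 0.12, 0.61 ± 0.11 and 0.59 ± 0.11. Gapdh (-0.06, adjusted p = 0.746) and Pgk1 (-0.24, adjusted p = 0.192) did not pass.

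Txnip, which lowers glucose uptake and binds thioredoxin, was at 11.81 and 12.04 on the controls and at 10.31, 10.58 and 9.85 on the labelled arrays. It fell by 1.48 ± 0.12 (adjusted p = 8.22e-09). Of 14 tested genes of HIF and its targets 5 were lower and 0 higher, beside 9.64% and 6.25% of all genes. Vegfa, the endothelial growth factor, went from 11.62 and 11.51 to 10.37, 10.42 and 10.72, and fell by 1.18 ± 0.12 (adjusted p = 2.71e-07). Ndrg1, a stress-induced differentiation gene, and Pdk1, the kinase that blocks pyruvate dehydrogenase, fell by 0.95 ± 0.13 and 0.91 ± 0.13. Ndrg1 on array 3 stood at 10.11, between arrays 1 and 2 at 9.64 and 9.66 and the controls at 10.43 and 10.77. Hif1a differed by -0.51 ± 0.12 and lost its call without control array 2 (-0.41, adjusted p = 0.0934) and without labelled array 1 (-0.31, adjusted p = 0.174). Of 15 tested genes of the TCA cycle 0 were core genes, beside 15.9% of all genes. Of the 15, 3 had an unadjusted p under 0.05 (limma), beside 3938 of all 13760 genes. Idh2 and Mdh2, enzymes of the cycle, differed by -0.31 and 0.21 (adjusted p = 0.0603 and 0.185).

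Lipid, lysosome and autophagy lists held more lower than higher core genes, as did all genes tested (9.64% lower and 6.25% higher). Of 18 tested cholesterol genes 5 were lower and 0 higher. Cyp51 and Msmo1, enzymes of the late sterol pathway, were at 10.48 and 10.46 and at 11.65 and 11.46 on the controls. On the labelled arrays they were at 9.69, 9.70 and 9.19 and at 10.88, 10.71 and 10.53. Array 3 was the lowest for both, and they fell by 0.78 ± 0.12 and 0.76 ± 0.13. Npc1, which exports cholesterol from lysosomes, fell by 0.70 ± 0.10. Of its 4 tested probes 2 were core genes, and another differed by only -0.12. Insig1, the sterol sensor, was at 9.58 and 9.51 on the controls, at 9.01 and 8.88 on arrays 1 and 2, and at 10.31 on array 3. Its difference was -0.60 ± 0.12 without array 3 (adjusted p = 0.00130) and -0.14 ± 0.33 with it (adjusted p = 0.834). Sqle, squalene epoxidase, did not pass (-0.17, adjusted p = 0.333). Of 11 tested fatty acid synthesis genes 4 were lower and 0 higher, and Acsl3, an acyl-CoA synthetase, was the only 1 of them called with each of the 4 arrays left out (-0.67 ± 0.11).

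Of 19 tested lysosomal genes 6 were lower and 0 higher. The hydrolase genes Glb1 and Neu1 fell by 0.63 ± 0.11 and 0.55 ± 0.10 and kept their calls with each array left out. The count was 2 to 3 in those 4 fits. Other Glb1 probes differed by up to 0.11. Lamp1, the main lysosomal membrane protein, did not pass (0.03, adjusted p = 0.877). Stbd1, a glycogen-binding protein of the lysosomal route of glycogen, stood at 9.80 and 10.08 on the controls and at 8.49, 8.42 and 8.06 on the labelled arrays. It fell by 1.48 ± 0.11 (adjusted p = 2.08e-09). Sqstm1, the autophagy receptor p62, went from 13.09 and 13.10 to 12.39, 12.45 and 12.04, a fall of 0.67 ± 0.11. The 15 tested autophagy genes had a median difference of 0.12, beside -0.02 over all genes. Of them 4 were lower and 1, Map1lc3b, was higher (0.45 ± 0.12). With 1 array left out, 1 to 3 were lower (1 without labelled array 1), and Map1lc3b lost its call without control array 1 and without labelled array 1 (adjusted p = 0.144 and 0.212).

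Of 18 tested ER chaperone and unfolded protein genes 6 were lower and 0 higher, beside 9.64% and 6.25% of all genes. With 1 array left out, 2 to 5 of the 18 were lower. Xbp1, the spliced factor of this response, fell by 0.45 ± 0.10, from 13.20 and 13.30 to 12.81, 12.79 and 12.72. Dnajb9, a BiP cofactor, was at 9.33 and 9.38 on the controls and at 8.77, 8.79 and 9.40 on the labelled arrays. It fell by 0.58 ± 0.11 without array 3, and its difference was -0.37 ± 0.17 with it (adjusted p = 0.207). Hspa5, which encodes BiP, stood at 8.20 and 7.45 on the controls, 8.15 and 8.33 on arrays 1 and 2, and 12.57 on array 3, and did not pass (adjusted p = 0.117 and 0.287). Slc3a2, Hspa5 and Col3a1 are genes in which array 3 alone lay more than 3 log2 units above the other 4 arrays. They were chosen after their values were seen.

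**Figure D3:**
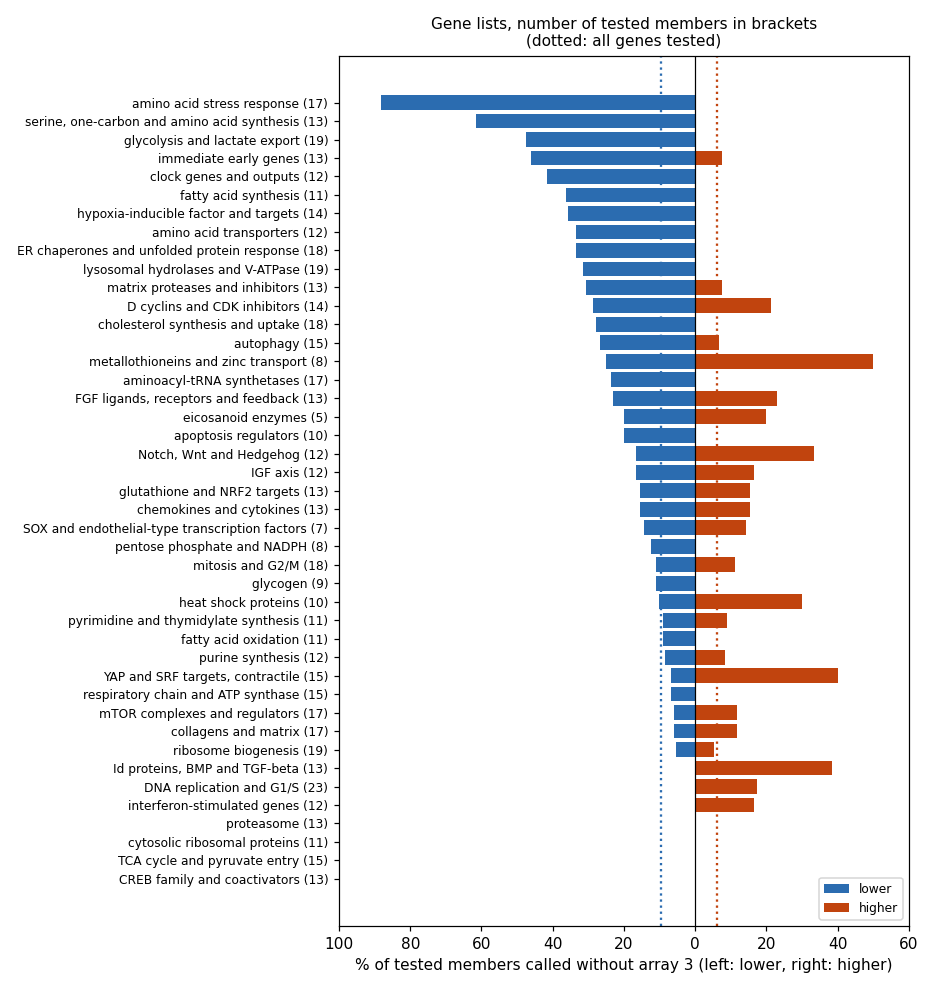
Share of tested members of each gene list that were core genes, lower to the left and higher to the right, with the number tested in brackets. Dotted lines give the shares over all genes, 9.64% lower and 6.25% higher. The amino acid stress list reaches furthest to the left and the metallothionein and zinc list furthest to the right.

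Several other genes were among the 15 largest decreases. Zbtb18, a zinc finger repressor, stood at 8.94 and 9.34 on the controls and at 7.65, 7.71 and 8.27 on the labelled arrays. It fell by 1.46 ± 0.12, and 3 of its 4 tested probes were core genes. Gch1, the enzyme that starts tetrahydrobiopterin synthesis, went from 10.24 and 10.63 to 9.04, 9.08 and 9.03, and fell by 1.37 ± 0.15. Gtpbp2, a GTPase that rescues stalled ribosomes, went from 12.51 and 12.65 to 11.23, 11.17 and 10.68. Its difference was -1.37 ± 0.11, while its second probe differed by -0.33. Stard5, a sterol and bile acid carrier, and Stambpl1, a deubiquitinase, fell by 1.34 ± 0.12 and 1.32 ± 0.11. Mcl1, a survival protein of the BCL2 family, fell by 1.06 ± 0.11, from 11.09 and 11.06 to 10.00, 10.03 and 9.94. Bbc3, the cell death gene PUMA, fell by 0.63 ± 0.11, although other probes of it differed by up to 0.02. They were 2 lower genes of 10 tested apoptosis regulators, beside 9.64% of all genes.

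**Figure D4:**
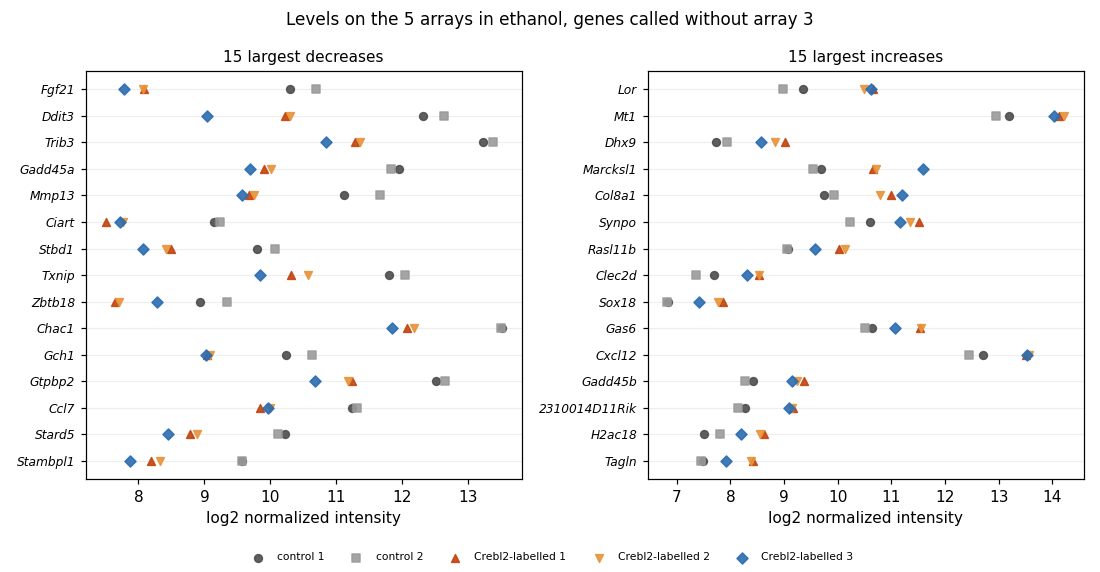
Log2 normalized intensity on each of the 5 arrays for the 15 core genes with the largest decrease (left) and the 15 with the largest increase (right). Grey symbols are the 2 controls, triangles the labelled arrays 1 and 2, and diamonds array 3. In all 30 genes the 3 labelled arrays lie on the same side of both controls.

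Increases were smaller than decreases. Lor, which encodes the cornified envelope protein loricrin, stood at 9.35 and 8.98 on the controls and at 10.65, 10.49 and 10.61 on the labelled arrays. It rose by 1.41 ± 0.13 (adjusted p = 5.83e-08), the most of any core gene when each gene is read from its brightest probe. Dhx9, an RNA helicase, was at 7.74 and 7.93 on the controls and at 9.01, 8.83 and 8.56 on the labelled arrays, and rose by 1.09 ± 0.16. Sox18, a transcription factor of endothelial cells, was not above background on either control. It was at 7.86 and 7.78 on arrays 1 and 2 and at 7.41 on array 3, at least 1.98-fold higher without array 3. Sox18 passed the detection filter, described at the end, only through the labelled arrays, so its call is no independent support. Of the 860 higher core genes 23 were not above background on either control. Of the 1327 lower core genes 38 were not above background on labelled arrays 1 and 2. Rasl11b, a small GTPase, rose by 1.01 ± 0.11, and Clec2d, a C-type lectin, by 1.01 ± 0.14. H2ac18, a histone H2A gene, rose by 0.93 ± 0.12. 2310014D11Rik, whose role is not known here, rose by 0.95 ± 0.13.

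Genes of metal binding and zinc transport moved in both directions. Mt1, a metallothionein that binds zinc, was at 13.18 and 12.95 on the controls and at 14.12, 14.21 and 14.04 on the labelled arrays. Mt2, its neighbour in function, was at 7.13 and 6.91 against 7.83, 7.94 and 9.24. The zinc exporter gene Slc30a1 was at 8.18 and 8.15 against 8.74, 8.79 and 9.15. Array 3 lay above both controls in these 3 genes, and they rose by 1.10 ± 0.13, 0.86 ± 0.13 and 0.60 ± 0.11 (adjusted p = 1.84e-06, 5.26e-05 and 0.000379). Array 3 lay well above arrays 1 and 2 for Mt2. Slc39a6, a zinc importer, fell by 0.55 ± 0.11. In all, 4 of 8 tested genes of this list were higher and 2 lower, beside 6.25% and 9.64% of all genes. The fourth higher gene, Mtf1, the zinc-sensing factor, differed by 0.34 ± 0.10 and lost its call with any 1 array left out (adjusted p from 0.0938 to 0.158).

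Of 15 tested contractile genes and targets of SRF and YAP, 6 were higher and 1 lower, beside 6.25% and 9.64% of all genes. Tagln, the actin-binding protein SM22, was at 7.48 and 7.45 on the controls and at 8.43, 8.37 and 7.93 on the labelled arrays, and rose by 0.93 ± 0.11 (adjusted p = 3.98e-06). Flna, a filamin, went from 10.32 and 10.06 to 10.80, 10.83 and 11.02 and rose by 0.63 ± 0.10. Tpm1, a tropomyosin, and Acta2, smooth muscle actin, rose by 0.55 ± 0.10 and 0.48 ± 0.10. The Acta2 value is that of its brightest probe. Of its 5 tested probes 4 were core genes, and the 5 differences ran from 0.14 to 1.69. These 4 genes kept their calls with each array left out. Tpm2 (0.42 ± 0.12) did not, and of its 3 tested probes 1 was a core gene. Ccn2, a YAP target, was the lower gene (-0.38 ± 0.11), and its call was lost in some of these fits (adjusted p up to 0.238). Ccn1, another YAP target, did not pass (-0.29, adjusted p = 0.139). Synpo and Marcksl1, regulators of actin outside this list, rose by 1.02 ± 0.12 and 1.08 ± 0.11. Of the 3 Marcksl1 probes 1 was a core gene.

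Of 13 tested genes of the BMP and TGF-beta pathways and their Id targets, 5 were higher and 0 lower. Over all genes the shares were 6.25% and 9.64%. Id2, an inhibitor of bHLH factors, was at 7.60 and 7.47 on the controls and at 8.25, 8.40 and 9.74 on the labelled arrays. It rose by 0.79 ± 0.13. Bmpr1a, a BMP receptor, rose by 0.66 ± 0.11, from 8.53 and 8.59 to 9.22, 9.21 and 9.81. The second probes of both genes differed less, at 0.20 and -0.21. Bmp4, a ligand, went from 11.29 and 11.41 to 11.93, 11.82 and 11.32, so that array 3 lay between the controls. It rose by 0.52 ± 0.11 without array 3, and its difference with array 3 was 0.34 ± 0.16 (adjusted p = 0.222). Id3 differed by 0.44 ± 0.12 and lost its call without control array 2 and without labelled array 2 (adjusted p = 0.122 and 0.158). Fst, which traps activin, differed by 0.47 ± 0.12, with array 3 between the controls, and lost its call without control array 2 (adjusted p = 0.213) and labelled array 2 (0.123). Id1 did not pass (0.21, adjusted p = 0.195).

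Secreted factors moved in both directions. Among 13 tested FGF genes 3 were higher and 3 lower, beside 6.25% and 9.64% of all genes. Fgf18 went from 7.04 and 6.97 to 7.90, 7.94 and 7.96 and rose by 0.91 ± 0.11, whereas Fgf5 went from 9.90 on both controls to 9.20, 9.11 and 8.65 and fell by 0.75 ± 0.11. Fgfr2, an FGF receptor, rose by 0.87 ± 0.12, with 1 of 3 tested probes called. Dusp4, a MAP kinase phosphatase, was called higher by its brightest probe (0.32 ± 0.11) and lower by 2 other probes, and no direction is given for it. In the IGF axis, Igfbp3 rose by 0.81 ± 0.13 and Pappa, a protease that frees IGF, by 0.63 ± 0.10. Igfbp5 and Igfbp4 fell by 0.84 ± 0.12 and 0.48 ± 0.11, and Igfbp4 lost its call without labelled array 1 (adjusted p = 0.0516). Cxcl12, a chemokine made by stromal cells, went from 12.70 and 12.44 to 13.52, 13.55 and 13.53 and rose by 0.96 ± 0.11. Of its 3 tested probes 1 was a core gene, and another differed by -0.10. Gas6, a ligand of TAM receptors, rose by 0.98 ± 0.11, and Col8a1, a short-chain collagen, by 1.06 ± 0.11.

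**Figure D5:**
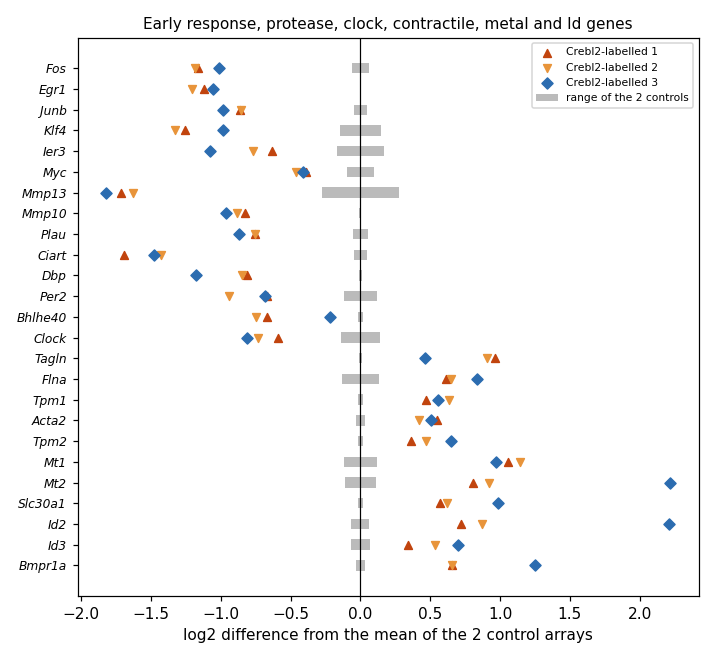
Log2 difference of each Crebl2-labelled array from the mean of the 2 controls for early response, protease, clock, contractile, metal and Id genes, with a grey bar for the range of the controls. Genes from Fos to Clock lie to the left of 0 and those from Tagln to Bmpr1a to the right, with array 3 furthest out for Mt2 and Id2.

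Genes of mTOR and CREB themselves were read from lists of their own. Of 17 tested mTOR complex genes and regulators 1 was lower and 2 were higher, beside 9.64% and 6.25% of all genes. Of the 17, 8 had an unadjusted p under 0.05 (4 lower and 4 higher, limma), beside 3938 of all 13760 genes. Mtor was at 8.55 and 8.69 on the controls and at 7.99, 8.25 and 7.50 on the labelled arrays, a difference of -0.50 ± 0.12 (adjusted p = 0.00520). That call was lost without control array 2 (-0.43, adjusted p = 0.0807) and without labelled array 1 (-0.38, adjusted p = 0.123). Eif4ebp2, a translation repressor under mTORC1, rose by 0.56 ± 0.12 without array 3, and on array 3 it lay at 7.93 between the controls. Mlst8, a subunit shared by both mTOR complexes, differed by 0.33 ± 0.11, and its call was lost with an array left out (adjusted p up to 0.168). Of 13 tested members of the CREB family and its coactivators 0 were core genes (limma), and 3 had an unadjusted p under 0.05. Crtc1, a coactivator, differed by -0.31 ± 0.11, Atf2 by 0.24 ± 0.11 and Creb1 by 0.02 ± 0.10 (adjusted p = 0.0585, 0.129 and 0.921). Of the 11 tested cytosolic ribosomal protein genes and the 13 of the proteasome 0 were core genes as well, and 1 of each list had an unadjusted p under 0.05. With 1 array left out, up to 2 proteasome genes and 1 CREB family gene were called.

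Of 23 tested genes of DNA replication and the G1/S step 4 were higher and 0 lower, beside 6.25% and 9.64% of all genes, led by Ccne1, cyclin E1, and E2f2, an E2F factor. Ccne1 went from 8.07 and 8.18 to 8.76, 8.86 and 8.31 and rose by 0.68 ± 0.13 without array 3. E2f2 rose by 0.58 ± 0.11. With array 3 their differences were 0.52 ± 0.17 and 0.42 ± 0.15 and did not pass (adjusted p = 0.0975 and 0.120). Rrm1, a subunit of ribonucleotide reductase, rose by 0.72 ± 0.11. Of 18 tested mitosis genes 2 were higher and 2 lower, and with 1 array left out between 0 and 1 were lower and 0 higher.

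The cells carried fibroblast markers. Of 10 markers 9 were tested, with Vim between 11.65 and 12.29 and Col1a1 between 11.21 and 11.92 over the 5 arrays. The summed intensity of the 9 was 15740 to 16515 on the controls, 17041 to 17237 on arrays 1 and 2, and 28033 on array 3. Much of the rise on array 3 was Col3a1, at 8.72 and 8.79 on the controls, 9.05 and 9.20 on arrays 1 and 2, and 13.04 on array 3. The median difference of the 9 from the control mean was 0.21 on arrays 1 and 2 and 0.17 on array 3. Of macrophage, endothelial, skeletal muscle and hepatocyte markers, 4 of 8, 3 of 8, 2 of 7 and 3 of 6 were detected well enough to be tested. Of those tested 0 were core genes, beside 15.9% of all genes, the share for the marker counts below as well. In each list 0 to 1 had an unadjusted p under 0.05 (limma), beside 3938 of all 13760 genes. With so few tested, these counts do not show that the markers were unchanged. The sums of these 4 lists stayed at 646 or less on each array. Of the 7 adipocyte markers 3 were tested. Their sum was 11524 to 12926 on the controls and 7089 to 7414 on the labelled arrays, and Lpl, lipoprotein lipase, which fibroblasts also make and which gives nearly all of that sum, fell by 0.77 ± 0.11. The other 2, Pparg and Lep, were not core genes, and the median difference of the 3 was -0.05. Of 7 epithelial markers 5 were tested, with sums of 5523.3 to 5594.5 on the controls, 5324.5 to 5425.7 on arrays 1 and 2 and 3677 on array 3. Krt14 rose by 0.66 ± 0.12, while Krt18 differed by -0.47 ± 0.11 and lost its call without control array 2 (adjusted p = 0.0624). Of 5 tested neuron markers 1, Syt1, was a core gene (-0.39 ± 0.12), also lost with arrays left out (adjusted p up to 0.25). The part of these markers in the other results was not tested.

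The same siRNA contrast was available in rapamycin, on 6 other arrays, of which the 3 Crebl2-labelled ones stood apart together with array 3. There 3367 genes were lower (24.5%) and 1604 higher (11.7%). Of the 1327 lower core genes 854 (64.4%) were also lower there and 41 were higher. Of the 860 higher core genes 269 (31.3%) were also higher and 79 were lower. In that contrast Trib3 differed by -1.10, Ddit3 by -1.13 and Gadd45a by -0.81. Txnip (-1.40), Mcl1 (-1.06) and Mt1 (1.64) differed by about as much as or more than in ethanol, whereas Stbd1 (0.01), Gch1 (0.13) and Asns (0.02) did not pass (adjusted p = 0.954, 0.534 and 0.877). Rapamycin against ethanol with luciferase siRNA shares both control arrays with the comparison described here. Its values for Fgf21 and Trib3 were -2.70 and -2.80, beside -2.42 and -1.98 for the siRNA, and these are not independent of each other.

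Background was not subtracted in the authors' values, so differences of dim genes are understated. With normexp background correction of the deposited non-normalized intensities (neqc, an alternative setting), the difference was over 1.5 times larger for Sox18 (2.52), Tagln (1.51), Clec2d (1.59) and H2ac18 (1.44) among the 30 leading genes. Among other named genes it was -1.79 for Fos, -1.33 for Mmp10, -1.18 for Plau, -1.51 for Atf3, -1.17 for Cth, 2.04 for Fgf18, 1.96 for Mt2, 1.32 for Id2 and 1.28 for Pappa. Differences of -0.86 for Myc, -0.90 for Hif1a, 1.16 for Sik1, 1.14 for Fst and -0.95 for Syt1 were likewise larger than without this correction. The calls of Aars, Aldh18a1, Atf4, Bag3, Bst2, Ccl2, Ccn2, Col3a1, Dusp4, Eif4ebp1, Hif1a, Id3, Igfbp4 and Isg15 were lost with neqc. So were those of Krt18, Map1lc3b, Mlst8, Mmp2, Mmp14, Mtor, Nupr1, Phgdh, Psat1, Stc2, Syt1, Tpm2 and Tpx2. All 30 leading genes kept their calls without array 3 under neqc and the other 14 settings tried, and all 30 also passed with array 3 in the main setting.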

How the data were processed

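RNA of 11 samples was labelled and hybridised to Illumina mouse bead arrays, per the labels' protocols. The values used are intensities that the authors normalized between arrays and deposited on a linear scale, with background not subtracted. For the normalization method and scanner software, nothing was given in the sources used here. The deposited tables also hold a detection p-value for each probe and array. Array medians lay between 110.5 and 112.4, and 46.9 to 51.2% of probes were detected. The number of arrays limits the precision.

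Intensities were taken to log2 with no pseudocount. Probes with a detection p under 0.05 on at least 2 of the 5 compared arrays were kept (24023 of 46237), and each gene was represented by its probe with the highest mean over 11 arrays. Probe names came from the platform annotation, which gave 35784 probes 1 symbol, 0 several and 10453 none. Differences, SEs and p-values came from limma 3.58.1 in R 4.3.3 (lmFit and eBayes, 4 groups in 1 fit), with Benjamini-Hochberg adjustment over 13760 genes. The fit was run on 11 arrays and on 10, without Crebl2-labelled array 3. It was tested on simulated data first. A bound fold for a gene not above background uses, on each array, the higher of the lowest detected signal and the probe's own signal. For Sox18 the probe's own signal was the higher, so its bound equals the plain log2 difference of 0.99.

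In the deposited non-normalized table the identifiers stand beside values of other probes (correlation by identifier with the normalized table -0.0096 to -0.0063). Its lines were matched by their ranks on the 11 arrays, after which the correlation was at least 0.9997 on each array, and used only for neqc with an offset of 16. Same-numbered arrays of different groups did not deviate together (15 pairs, r from -0.12 to 0.12), so numbers were not treated as pairs. Figures were drawn with matplotlib 3.10.9.

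The comparison, its members and the 51 gene lists were chosen with earlier results of these data known. The genes named are Crebl2 and Tsc2, the 15 core genes with the largest difference in each direction, and, for each list, up to 5 core members by size and up to 2 known members that did not pass. Further members were named after their values were seen. Alternatives changed the log scale, background correction, normalization, detection filter, probes, arrays in the fit, array weights and replicate block.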

Additional observations from a re-analysis of the deposited data

Results flagged for a closer look

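The siRNA difference in ethanol, taken from labelled arrays 1 and 2, was compared with that in rapamycin by an interaction term (limma, adjusted over all 13760 genes). It differed for 24 of the 30 leading genes, at adjusted p from 3.23e-10 for Ciart to 0.0133 for Mt1. Over all genes tested 4112 passed (29.9%), and 65 (0.472%) with array 3 in the fit. The 30 genes were chosen for their large difference in ethanol, which favours a larger value there, so these p-values are no independent support. The 3 labelled rapamycin arrays belong to the 4 arrays that stand apart, and a difference between the vehicles cannot be told apart from that.

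For the lower genes the difference in ethanol minus that in rapamycin was -1.89 for Ciart, -1.80 for Fgf21, -1.78 for Zbtb18, -1.51 for Gch1 and -1.49 for Stbd1. It was -1.24 for Ccl7, -1.15 for Mmp13, -1.13 for Gadd45a, -1.08 for Ddit3 and -0.94 for Chac1. The remaining 4 were Trib3 at -0.88, Gtpbp2 at -0.72, Stard5 at -0.71 and Stambpl1 at -0.64. In all 14 the siRNA difference was more negative in ethanol than in rapamycin. In rapamycin Ciart was called higher (0.33, adjusted p = 0.0254), and Zbtb18, Gch1 and Stbd1 differed by 0.31, 0.13 and 0.01, which did not pass. The other 10 had negative differences there, the smallest in Ccl7 (-0.11, adjusted p = 0.435). With luciferase siRNA all 14 were already lower in rapamycin than in ethanol, by -2.20 for Ciart, -2.70 for Fgf21 and -1.92 for Stbd1. Ciart stood at 7.04, 7.04 and 6.91 on those rapamycin arrays, near the lowest detected signal of 6.74 to 6.78. How far this limited a further fall in rapamycin was not tested.

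Of the 10 higher genes 9 had a larger siRNA difference in ethanol than in rapamycin. In rapamycin Synpo, Rasl11b and Gas6 had negative differences of -0.19, -0.20 and -0.05, which did not pass. The values of ethanol minus rapamycin were 1.22 for Rasl11b, 1.21 for Synpo, 1.02 for Gas6, 0.93 for Gadd45b and 0.88 for Clec2d. Dhx9 had 0.81, Lor 0.79, Cxcl12 0.77 and Sox18 0.50. Mt1 was the exception at -0.54, since its increase was larger in rapamycin.

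With array 3 in the fit, 11 of the 24 still passed: Ciart, Stbd1, Fgf21, Ccl7, Chac1, Gadd45a, Zbtb18, Gch1, Synpo, Cxcl12 and Trib3. For Txnip, Marcksl1, Col8a1, Tagln, H2ac18 and 2310014D11Rik the interaction did not pass in either fit.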

How the results depend on the processing

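With 3 labelled arrays, 1279 genes passed. The count was 750 with neqc, 51 with only the compared groups in the fit (2178 at an unadjusted p under 0.05), 700 without the labelled rapamycin arrays, 2628 with array weights and 2187 with the 4 apart arrays as a block. That block leaves array 3 without a control and so equals leaving it out. With 1 array left out the count ran from 228 (without control array 2; 383 without control array 1) to 2187 (without labelled array 3). With the replicate number as a block it was 806, and 2129 instead of 2187 without array 3. The 2187 core genes became 1263 with neqc and 1113 (without control array 2) to 1385 (without control array 1) with 1 array left out, and stayed within 1.5 times of 2187 under the other settings. The share of calls that were higher was 39.3% in the core and 20.3% with array 3, and moved to 37.8% with array weights and 9.80% with only the compared groups for the latter. Tpx2, a spindle gene, differed by 0.00 with 3 arrays, by 0.32 without labelled array 1, and by -0.46 with array weights and -0.50 with the apart block or without array 3. Of the 165 named genes, 52 lost their core call with neqc and 34 to 43 with 1 array left out. The causes were not tested. With 2 controls, a difference in either control array moves every value.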

Other observations

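Further lists held calls in both directions in the core comparison, in which 6.25% of all genes were higher and 9.64% lower. Of 10 tested heat shock genes 3 were higher and 1 lower. Bag3, a co-chaperone of HSP70, was at 11.30 and 11.21 on the controls and at 11.70, 11.77 and 11.57 on the labelled arrays, and rose by 0.48 ± 0.11. Of the 3 higher genes it was the one that kept its call with each of the 4 arrays left out, but it lost it with neqc (0.48, adjusted p = 0.0564, limma). Of 12 tested Notch, Wnt and Hedgehog genes 4 were higher and 2 lower. Dkk3, a secreted Wnt modulator, went from 10.30 and 10.18 to 9.39, 9.35 and 9.19 and fell by 0.87 ± 0.10. The ligand gene Wnt5a and the Notch target Hes1 rose by 0.61 ± 0.11 and 0.55 ± 0.12 without array 3. On array 3 both lay below the controls, at 8.97 and 8.15, and neither passed with it (adjusted p = 0.403 and 0.483, limma). Another Wnt5a probe differed by -0.24.

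Alox5ap, which hands arachidonic acid to 5-lipoxygenase, was at 8.27 or more on the controls and at 7.26, 7.18 and 7.35 on the labelled arrays, without overlap. It fell by 1.16 ± 0.11 (adjusted p = 1.61e-07, limma), and its difference in rapamycin was -1.38. Nfe2l2, the oxidative stress factor NRF2, fell by 0.67 ± 0.11, while its second probe differed by 0.05. With neqc these differences were -1.95 and -1.15. Hmox1, an NRF2 target, did not pass (-0.30, adjusted p = 0.0803). Of 12 tested interferon-stimulated genes 2 were higher and 0 lower, beside 6.25% and 9.64% of all genes. Neither Isg15 nor Bst2 kept its call with each array left out (adjusted p up to 0.288 and 0.428).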
